A study of Mus musculus with 2 samples.

Results

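The enzymes that carry glucose carbon through glycolysis, the pentose phosphate pathway, the UDP-sugar (galactose) branch and the tricarboxylic acid (TCA) cycle were examined in mammary epithelial cells (MECs) of lactating mice. The members were a list of 50 gene symbols chosen by pathway, with earlier results of these data known. Each was looked up by its symbol among the 25810 named genes of the deposited files. All 50 were listed, and 49 of them reached 1 RPM (a gene's reads scaled to the library's mapped total) in WT, Igfbp7-/- or both. Succinate dehydrogenase subunit Sdhd, at 1 read in each library, did not. Its partner subunits Sdha, Sdhb and Sdhc had 1984, 842 and 373 reads in WT. Why the Sdhd row held so few was not tested, so it is not read as absence of the transcript. The list was divided by function into 10 genes of upper glycolysis, 7 of lower glycolysis and lactate formation, 7 of the pentose phosphate pathway, 3 of the UDP-sugar branch, 5 of pyruvate entry into mitochondria and 18 of the TCA cycle.

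The study compared the transcriptomes of MECs from wild type (WT) and Igfbp7-/- mice, the latter lacking a secreted protein that binds insulin and insulin-like growth factors. It sequenced poly(A) RNA on a SOLiD instrument from 1 library per genotype. Both came from inguinal glands on lactation day 3, after magnetic removal of cells carrying lineage markers. The labels give the background of both genotypes as C57BL/6, while the study's methods describe the knockout line as CD1, and the labels name CD35 where the methods name CD31 among the removed lineages. The mice lacked the first coding exon of Igfbp7 in every cell, so the MECs were not the only cells without the protein. How many animals each library held and their age were not given in the sources used here. With 1 library per genotype no difference between genotypes could be tested. The intervals below are 95% Clopper-Pearson intervals on read pairs and cover counting error only, not the variation between animals.

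The libraries held 34327854 mapped reads for WT and 35016847 for Igfbp7-/-, so that 1 read was worth 0.0291 and 0.0286 RPM. Of the mapped reads, 82.3% of those of WT and 72.3% of those of Igfbp7-/- fell on listed genes. Igfbp7 itself had 5224 reads in WT and 37 in Igfbp7-/-, in the direction of the labels. The milk protein genes of alveolar cells and the luminal keratin genes were present in both libraries, led by beta-casein (Csn2) at 53087 RPM in WT and 19970 RPM in Igfbp7-/-. Markers of other cell types were present too. Their summed level was lower in Igfbp7-/- for myoepithelial cells (2876 and 941 RPM in WT and Igfbp7-/-), endothelial cells (1001 and 330 RPM), leukocytes (171 and 63.8 RPM), fibroblasts (4390 and 2631 RPM) and adipocytes (562 and 192 RPM). Of the markers past the minimum, 4 of 5, 3 of 4, 6 of 6, 3 of 5 and 3 of 4 were lower by at least 1.5 times. The remaining adipocyte marker, Lep, was higher (log2 ratio 1.06), and the adipocyte sum was mostly Fabp4 (543 and 173 RPM). The alveolar luminal list itself, led by the caseins, summed to 87342 and 33557 RPM, with 4 of 7 markers lower and 2 (the luminal keratins Krt8 and Krt18) higher. The erythroid list summed to 889 and 997 RPM. The part these cells had in the results below was not tested, and in bulk RNA fewer cells of a type cannot be told apart from less RNA per cell.

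Glycolysis splits glucose into pyruvate in the cytosol, and lactate dehydrogenase reduces pyruvate to lactate. The pentose phosphate pathway branches off at glucose 6-phosphate and yields NADPH and ribose phosphate, and in mitochondria pyruvate dehydrogenase feeds the TCA cycle. In the lactating gland the same carbon is drawn off at several points: UDP-galactose and glucose make lactose, and citrate exported from mitochondria, with NADPH, makes the fatty acids of milk.

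The regions just upstream of the transcription start are shown for the 4 members with the lowest ratios and for the 2 members that were higher in Igfbp7-/-. Some lower members that are not shown, such as Tkt and Pfkp, differed by more than the 2 higher ones. Each sequence is the 250 bases before a RefSeq start site in the GRCm38.p6 build, read 5′ to 3′ on the strand of the gene. Where a gene had 2 start sites, the one with more matches is given. Capitals mark the core of the hypoxia response element, ACGTG or GCGTG on either strand (CACGT or CACGC when on the opposite strand), through which hypoxia-inducible factors bind many glycolytic genes, and the sterol regulatory element TCACNCCAC. The letters CACGTG hold the core on both strands and also form an E-box. The windows are Aldoc at chr11:78322823-78323072 (plus strand), Mdh1 at chr11:21571935-21572184 (minus strand), Sdhb at chr4:140961021-140961270 (plus strand), Pgam1 at chr19:41911621-41911870 (plus strand), Pfkfb3 at chr2:11502091-11502340 (minus strand) and Rpia at chr6:70792176-70792425 (minus strand).
Aldoc: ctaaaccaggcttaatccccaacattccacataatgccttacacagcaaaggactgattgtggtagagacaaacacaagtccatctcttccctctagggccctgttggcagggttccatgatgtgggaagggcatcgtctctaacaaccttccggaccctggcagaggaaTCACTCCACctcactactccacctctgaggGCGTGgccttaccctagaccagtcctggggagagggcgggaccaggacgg
Mdh1: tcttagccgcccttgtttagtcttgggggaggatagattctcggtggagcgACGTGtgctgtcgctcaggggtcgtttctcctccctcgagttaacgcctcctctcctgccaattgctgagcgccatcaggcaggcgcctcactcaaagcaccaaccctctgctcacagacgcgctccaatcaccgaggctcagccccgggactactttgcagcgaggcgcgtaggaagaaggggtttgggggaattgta
Sdhb: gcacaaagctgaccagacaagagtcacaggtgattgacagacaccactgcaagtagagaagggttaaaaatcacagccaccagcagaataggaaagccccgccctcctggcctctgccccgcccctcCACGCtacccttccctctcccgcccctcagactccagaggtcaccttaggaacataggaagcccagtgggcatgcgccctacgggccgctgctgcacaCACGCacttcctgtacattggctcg
Pgam1: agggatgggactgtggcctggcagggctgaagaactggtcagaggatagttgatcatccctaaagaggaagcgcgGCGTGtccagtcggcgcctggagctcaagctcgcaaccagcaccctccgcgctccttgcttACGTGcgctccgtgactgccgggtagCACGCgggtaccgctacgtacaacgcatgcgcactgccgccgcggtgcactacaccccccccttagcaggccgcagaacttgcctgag
Pfkfb3: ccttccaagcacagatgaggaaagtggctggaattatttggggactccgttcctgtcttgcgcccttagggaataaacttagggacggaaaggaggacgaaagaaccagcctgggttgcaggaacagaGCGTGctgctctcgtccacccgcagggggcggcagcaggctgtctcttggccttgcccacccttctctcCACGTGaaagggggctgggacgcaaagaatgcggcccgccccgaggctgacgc
Rpia: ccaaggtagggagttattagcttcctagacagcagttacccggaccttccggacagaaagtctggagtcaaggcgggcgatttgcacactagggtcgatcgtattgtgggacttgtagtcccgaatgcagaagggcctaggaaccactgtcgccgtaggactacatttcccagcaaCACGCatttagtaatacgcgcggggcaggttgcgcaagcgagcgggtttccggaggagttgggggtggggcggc

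In the Aldoc window the sterol element began 80 bases and the hypoxia core 50 bases before the start site. A match to the hypoxia core was found for 38 of the 48 members that had an entry (79.2%), beside 41.5% of all 27025 genes with an entry, expressed or not. It was found for 15 of 17 glycolysis members and 11 of 16 TCA cycle members, and for 10 of the 12 members that were lower in Igfbp7-/- (the exceptions being Dlat and Suclg2). Both members that were higher had it as well, so the matches did not separate the members by direction. The sterol element was found for Aldoc and Pkm2 alone among the members and in 1.22% of all genes, and a CCAAT box for 24 of 48 members (50.0%) and 37.5% of all genes. The windows were compared by letters only, and a match is not a measured binding site. A gene counted if any of its start sites had a match. All genes were not matched to the members for level, base composition or number of start sites, so whether the members were enriched was not tested. Idh3a and Sdhc had no entry.

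Most of the 49 members differed little between the libraries, and those that differed were mainly lower in Igfbp7-/- MECs. By a ratio of at least 1.5, 12 members (24.5%) were lower in Igfbp7-/- and 2 (4.08%) were higher, beside 23% and 21.4% of all 14026 genes past the minimum. The share of lower members was thus near the background, and it was the higher members that were few. The 12 lower members were Aldoc, Mdh1, Sdhb, Pgam1, Tkt, Pfkp, Eno1, Ldha, Dlat, Suclg2, Pdhb and Pgk1, and the 2 higher were Pfkfb3 and Rpia. Over the members the log2 ratios of Igfbp7-/- to WT had a median of -0.28, against 0.035 over all genes (quartiles -0.52 and 0.51), and 39 of 49 members lay below 0 against 48.4% of all genes. Nearest to the threshold, Pgk1 was just inside at -0.63 and Pfkl just outside at -0.53. The RPM of all 50 members summed to 4403 in WT and 3740 in Igfbp7-/-. Pfkfb3 alone held 540.0 and 1050.5 RPM of these sums and differed in the opposite direction to the total.

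**Figure D1:**
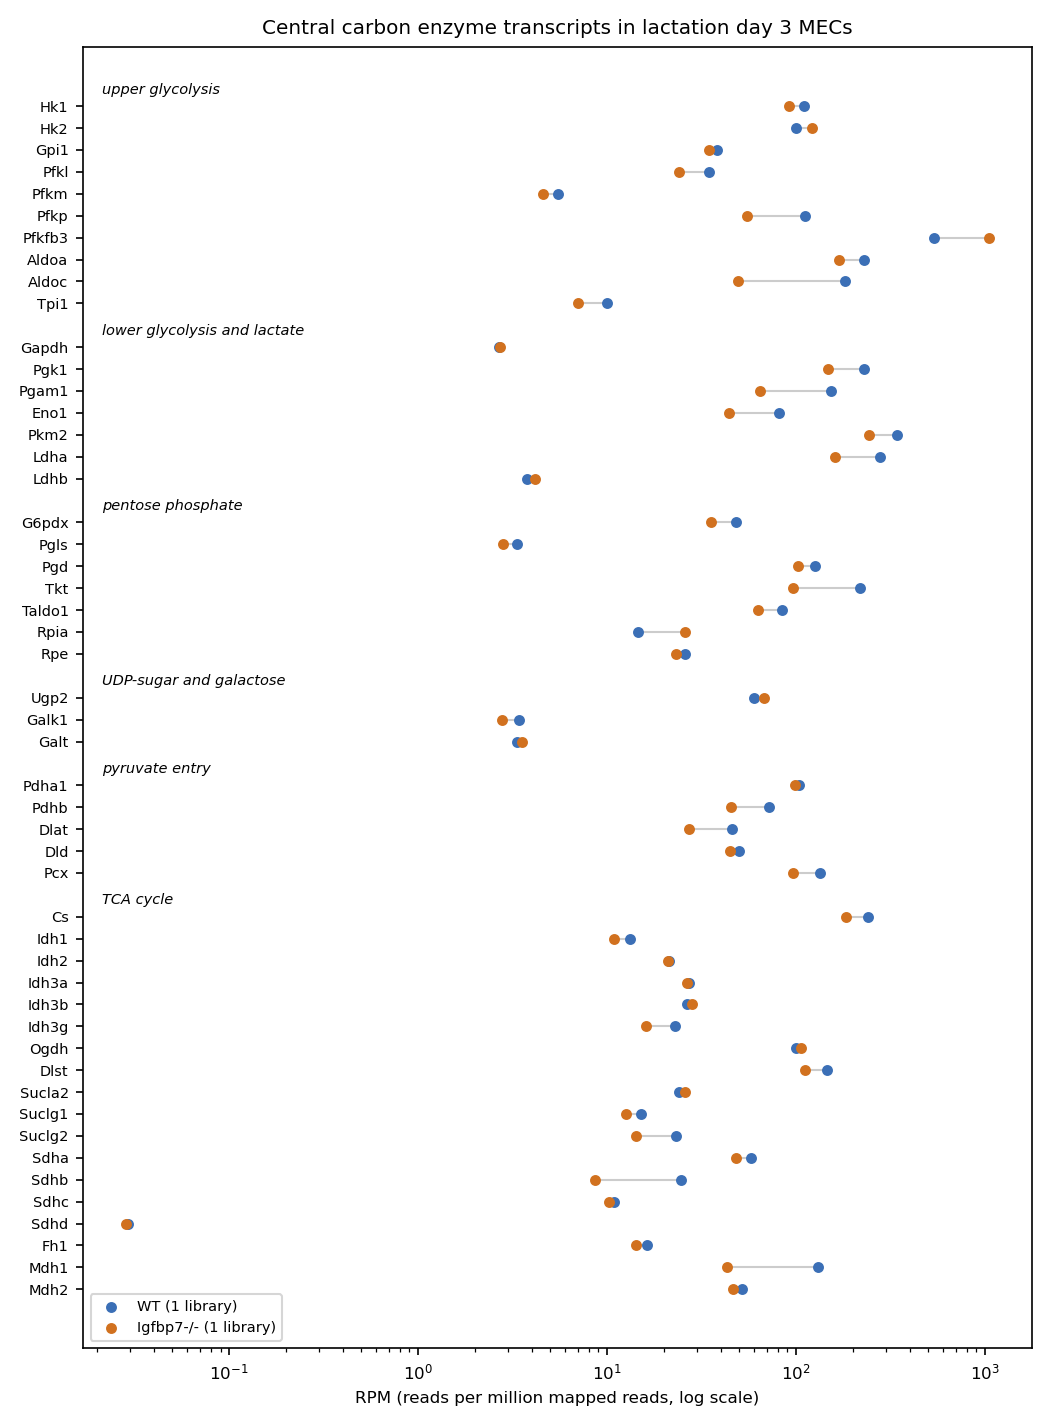
Level of each of the 50 members in RPM (log axis), grouped by function, with 1 point for the WT library and 1 for the Igfbp7-/- library. Pfkfb3 was the most abundant member by RPM in both libraries (540.0 and 1050.5 RPM), and Sdhd lay at 1 read in each.

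These counts depend on what the reads are scaled to. Scaled to the reads on listed genes, the median of all genes moved from 0.035 to 0.22, with 30.6% of genes higher and 18.6% lower by 1.5 times. On that scale 8 members were lower and 2 higher, the median of the members was -0.10, and 31 of 49 lay below 0; Pgk1, Pdhb, Dlat and Suclg2 were then within 1.5 times. Without the 20 most abundant genes in the totals, the median of all genes was -0.11, with 16.7% of genes higher and 27.9% lower, and 18 members (36.7%) were lower and 2 higher, Pfkl, Tpi1, Pkm2, G6pdx, Pcx and Idh3g being added. The 8 lower members Aldoc, Mdh1, Sdhb, Pgam1, Tkt, Pfkp, Eno1 and Ldha and both higher members kept their call under every scaling that was tried.

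**Figure D2:**
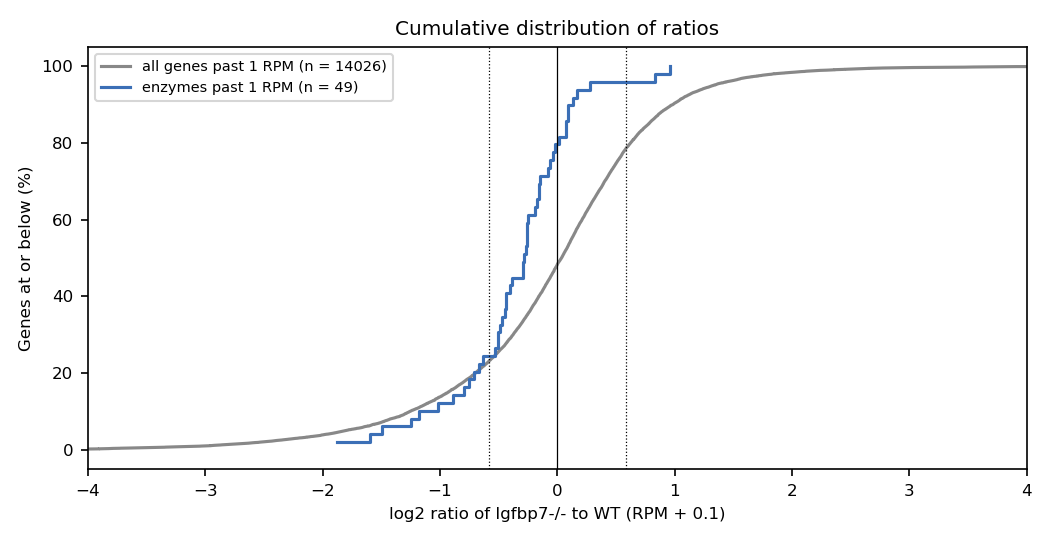
Share of genes (percent) at or below each log2 ratio of Igfbp7-/- to WT, for the 49 members and for all 14026 genes past the minimum. Dotted lines mark a ratio of 1.5 in each direction. At a log2 ratio of 0 the curve of the members held 39 of 49 genes and that of all genes 48.4%, while at the lower dotted line the curves nearly met (24.5% and 23%).

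In upper glycolysis 2 of 10 members (20%) were lower and 1 (10%) was higher in Igfbp7-/- MECs (median log2 ratio -0.35). Both shares were below the 23% and 21.4% of all genes. Aldoc, which encodes aldolase C, one of the enzymes that split fructose 1,6-bisphosphate, had the lowest ratio of all members. By the GENCODE M1 annotation of mm9, the build used for gene positions here, it lies on the plus strand of chromosome 11 (chr11:78136470-78141283) and had a count of 6281 (183 RPM) in WT and 1736 (49.6 RPM) in Igfbp7-/- (log2 ratio -1.88, interval -1.99 to -1.77), or 3.69-fold lower. Its isoenzyme Aldoa had 229 and 169 RPM and stayed within 1.5 times (log2 ratio -0.44). Pfkp, the platelet type subunit of phosphofructokinase, the committed step of glycolysis, had 3828 reads (112 RPM) in WT and 1928 (55.1 RPM) in Igfbp7-/- (log2 ratio -1.02, interval -1.13 to -0.91). The liver type subunit Pfkl (34.9 and 24.0 RPM) and the muscle type subunit Pfkm (5.53 and 4.60 RPM) stayed within 1.5 times. An annotated gene overlaps 11 members on the opposite strand, among them Pfkp (Pitrm1), and whether counting used strand was not given in the sources used here.

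Pfkfb3 went the other way. It encodes the enzyme that makes and removes fructose 2,6-bisphosphate, an activator of phosphofructokinase, and lies on chromosome 2 (mm9, chr2:11393057-11423728, minus strand). Its 18536 reads (540.0 RPM) in WT and 36785 (1050.5 RPM) in Igfbp7-/- gave a log2 ratio of 0.96 (0.92 to 0.996), 1.95-fold higher. Per length it was the most abundant member of upper glycolysis on the average of the libraries, at 104 and 202 RPKM (RPM per kilobase of transcript), ahead of Aldoa (144 and 106 RPKM) and Aldoc (108 and 29.1 RPKM). Set against Pfkp, its RPKM was 3.71 times as high in WT and 14.6 times in Igfbp7-/-. The hexokinases, which trap glucose in the cell, stood within 1.5 times, with Hk1 at 110.3 and 91.8 RPM and Hk2 at 100.6 and 122 RPM. Gpi1 and Tpi1, which interconvert hexose and triose phosphates, had log2 ratios of -0.15 and -0.50.

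**Figure D3:**
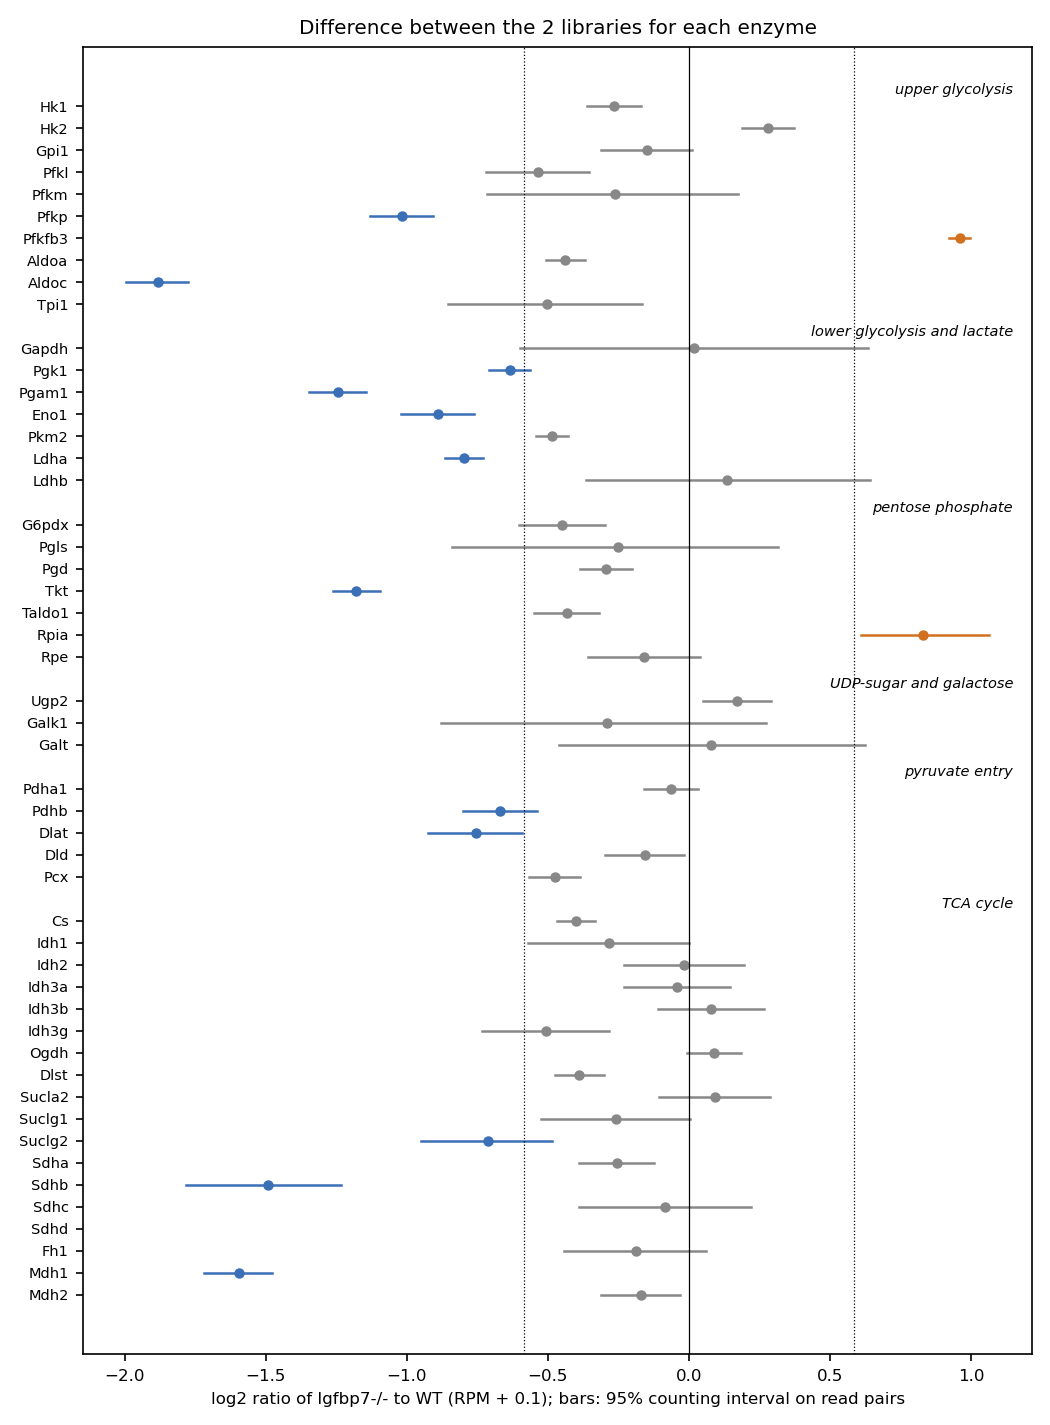
Log2 ratio of Igfbp7-/- to WT for the 49 members past the minimum (RPM with 0.1 added), by function; bars are 95% counting intervals on read pairs and dotted lines mark a ratio of 1.5. Blue points are the 12 lower members, orange points the 2 higher ones, and grey points stayed within 1.5 times; Sdhd was below the minimum and has no point.

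Lower glycolysis had the lowest median of the 6 groups, -0.63, and 4 of its 7 members (57.1%) were lower by at least 1.5 times, against 23% of all genes. All of its members except Pkm2 have a near-identical copy of most of their coding sequence elsewhere in the genome, as described below, so this order rests on uncertain levels. Pgam1, phosphoglycerate mutase, on chromosome 19 (mm9, chr19:41986361-41993154, plus strand), had 5274 reads (154 RPM) in WT and 2270 (64.8 RPM) in Igfbp7-/- (log2 ratio -1.24, interval -1.35 to -1.14). Eno1, the enolase that follows it in the pathway, had 81.6 and 44.0 RPM (log2 ratio -0.89, -1.02 to -0.76). Ldha, the lactate dehydrogenase subunit that favours lactate, had 279 and 160 RPM (-0.80, -0.86 to -0.73). All 3 kept at least 1.5 times under every scaling. Pgk1, which makes the first ATP of the pathway, had 230.1 and 148 RPM (-0.63, -0.71 to -0.56), an interval that reached across the threshold. Pkm2, the symbol under which the files list the pyruvate kinase gene with both its M1 and M2 transcripts, had 342 and 244 RPM (-0.48). Per length Pkm2 was the most abundant member of this group in both libraries (154 and 110.3 RPKM), followed by Ldha (150.4 and 86.6 RPKM) and Pgk1 (127 and 81.6 RPKM). Ldhb was low in both libraries (130 and 146 reads, 3.79 and 4.17 RPM).

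Gapdh, the glyceraldehyde phosphate dehydrogenase often used as a reference transcript, was listed with only 92 reads (2.68 RPM) in WT and 95 (2.71 RPM) in Igfbp7-/-. Pgk1, which acts next in the pathway, was at 230.1 RPM in WT. Rows for Gapdh pseudogenes held more reads than Gapdh itself: 9 such rows were listed, 7 of them with reads, and they summed to 2107 reads in WT and 1550 in Igfbp7-/-. One of them, Gm12070, took 1986 and 1468 of these (57.9 and 41.9 RPM, log2 ratio -0.46, interval -0.60 to -0.33). Of the reads on Gapdh and its pseudogenes, 4.18% in WT and 5.78% in Igfbp7-/- stood on the Gapdh row. Summed, they gave 64.1 RPM in WT and 47.0 RPM in Igfbp7-/-, a log2 ratio of -0.45, whereas the Gapdh row alone gave 0.02 (-0.60 to 0.63). The level of Gapdh transcripts can therefore not be read from its own row.

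The same question touches other members. When the coding sequence of each member was compared with the mm9 genome, 11 members had stretches of at least 75 bases at 96% identity or more elsewhere, and for 8 (Gapdh, Pgk1, Pgam1, Eno1, Ldha, Ldhb, Pdhb and Suclg2) these covered over 90% of the coding sequence. The number of other loci was 58 for Gapdh, 4 for Pgk1, 3 each for Eno1 and Ldha, 2 for Pgam1 and 1 each for Ldhb, Pdhb and Suclg2. Of these 8 members 6 were among the 12 lower ones. How reads that match several loci were placed was not given in the sources used here, so the levels of these 8 members are uncertain. Among the 38 members past the minimum without such a copy, 6 (15.8%) were lower and 2 (5.26%) were higher, both below the 23% and 21.4% of all genes, with a median log2 ratio of -0.26. The 6 were Aldoc, Mdh1, Sdhb, Tkt, Pfkp and Dlat.

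**Figure D4:**
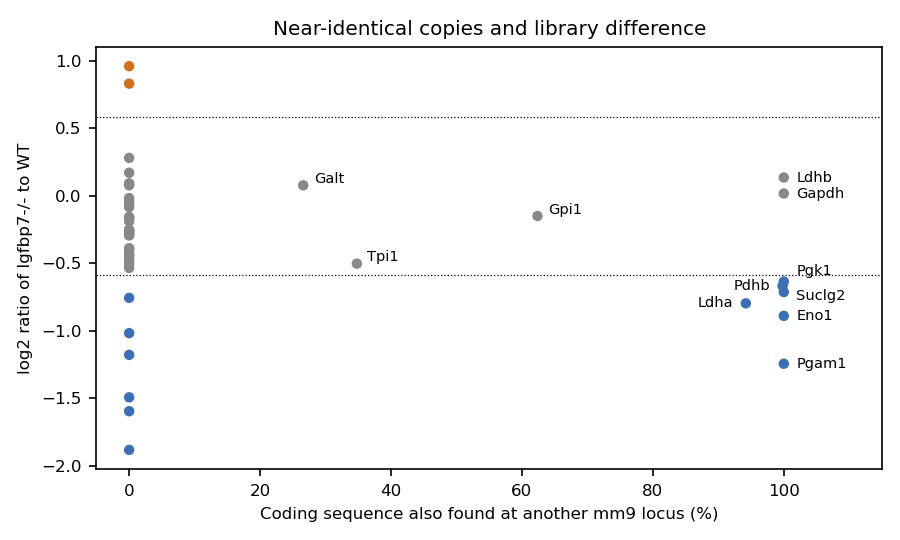
Log2 ratio of Igfbp7-/- to WT against the percent of the coding sequence found at 96% identity or more at another mm9 locus, for the 49 members past the minimum; dotted lines mark a ratio of 1.5. Blue points are lower, orange points higher and grey points within 1.5 times. Of the 12 lower members 6 stand at 0% and 6 above 90%.

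In the pentose phosphate pathway the enzymes of the oxidative arm, which yield NADPH, stayed within 1.5 times. G6pdx, its first enzyme, had 48.3 and 35.4 RPM (log2 ratio -0.45), Pgls 3.35 and 2.80 RPM, and Pgd 126 and 102.8 RPM (-0.29). The non-oxidative arm, which rearranges sugar phosphates, held the 2 members past the threshold, in opposite directions. Of the pathway's 7 members, 1 was lower and 1 higher (14.3% each), beside 23% and 21.4% of all genes. Tkt, transketolase, had 7469 reads (218 RPM) in WT and 3365 (96.1 RPM) in Igfbp7-/- (log2 ratio -1.18, interval -1.26 to -1.10), 2.26-fold lower. It overlaps the annotated gene AC154646.1 on the same strand. Taldo1, transaldolase, which shares substrates with it, had 84.7 and 62.7 RPM (-0.43). Per length the 2 enzymes were close in WT (Tkt 67.8 and Taldo1 66.4 RPKM), while in Igfbp7-/- Tkt stood at 30.0 and Taldo1 at 49.1 RPKM, a ratio of Tkt to Taldo1 of 1.02 and 0.610. Pgd was at 56.6 and 46.2 RPKM.

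Rpia, the isomerase that forms ribose 5-phosphate, lies on chromosome 6 (mm9, chr6:70715714-70742226, minus strand) and had 499 reads (14.5 RPM) in WT and 908 (25.9 RPM) in Igfbp7-/- (log2 ratio 0.83, interval 0.61 to 1.06). Rpe, the epimerase that acts on the same substrate, had 26.0 and 23.3 RPM (-0.16). The UDP-sugar members did not reach the threshold in either direction (median log2 ratio 0.08). Ugp2, which makes UDP-glucose, the precursor of the UDP-galactose used for lactose, had 59.9 RPM in WT and 67.4 RPM in Igfbp7-/- (0.17, 0.05 to 0.29). The galactose enzymes Galk1 (3.41 and 2.77 RPM) and Galt (3.35 and 3.54 RPM) rested on between 97 and 124 reads each.

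Of the 5 members of pyruvate entry, 2 (40%), both subunits of the pyruvate dehydrogenase complex, were lower in Igfbp7-/-, beside 23% of all genes. Pdhb, the E1 beta subunit, had 2486 reads (72.4 RPM) in WT and 1595 (45.5 RPM) in Igfbp7-/- (log2 ratio -0.67, interval -0.80 to -0.54). Dlat, the E2 subunit, had 1580 reads in WT (46.0 RPM) and 953 in Igfbp7-/- at 27.2 RPM (log2 ratio -0.76, interval -0.93 to -0.59). The interval of Pdhb crossed the threshold, and neither gene kept its call when reads were scaled to listed genes. Pdha1, the E1 alpha subunit that pairs with Pdhb, had 103.4 and 98.9 RPM (-0.06, -0.16 to 0.03), and the E3 subunit Dld had 50.2 and 45.0 RPM (-0.16). Per length Pdhb was 1.31 times Pdha1 in WT (48.77 and 37.22 RPKM) and 0.862 times in Igfbp7-/- (30.7 and 35.6 RPKM). Scaling does not touch this comparison within a library, but the coding copy of Pdhb elsewhere in the genome leaves its level uncertain. Pcx, pyruvate carboxylase, which makes oxaloacetate, had 134 and 96.3 RPM, or 32.3 and 23.2 RPKM (-0.47).

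In the TCA cycle 14 of the 17 members past the minimum stayed within 1.5 times, 3 (17.6%) were lower and none was higher (median log2 ratio -0.26). Of all genes 23% were lower and 21.4% higher. Mdh1, the cytosolic malate dehydrogenase of the malate-aspartate shuttle, lies on chromosome 11 (mm9, chr11:21456790-21472370, minus strand). It had 4510 reads (131 RPM) in WT and 1520 (43.4 RPM) in Igfbp7-/- (log2 ratio -1.60, interval -1.72 to -1.48), 3.03-fold lower. It overlaps Wdpcp on the opposite strand. Mdh2, the mitochondrial enzyme of the cycle itself, had 52.0 and 46.2 RPM (-0.17). The RPKM of Mdh1 was 1.67 times that of Mdh2 in WT and 0.623 times in Igfbp7-/-, so the order of the pair per length turned over between the libraries. Without division by length, Mdh1 held 71.6% of the pair's reads in WT and 48.5% in Igfbp7-/-, the latter close to equal shares.

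Sdhb, the iron-sulfur subunit of succinate dehydrogenase (respiratory complex II), had 842 reads (24.5 RPM) in WT and 303 (8.65 RPM) in Igfbp7-/- (log2 ratio -1.49, interval -1.78 to -1.23). It lies on the plus strand of chromosome 4 (mm9, chr4:140517118-140535108). Its partner subunits Sdha (57.8 and 48.4 RPM, -0.26) and Sdhc (10.9 and 10.3 RPM, -0.08) stayed within 1.5 times, and the ratio of Sdhb to Sdha per length was 1.11 in WT and 0.468 in Igfbp7-/-. The third lower member was Suclg2, the GDP-forming beta subunit of succinyl-CoA ligase, with 799 reads in WT (23.3 RPM) and 496 in Igfbp7-/- at 14.2 RPM (log2 ratio -0.71, interval -0.95 to -0.48, across the threshold). Its ADP-forming counterpart Sucla2 had 24.1 and 25.7 RPM (0.09). Per length Sucla2 was 1.12 times Suclg2 in WT and 1.96 times in Igfbp7-/-, with the level of Suclg2 left uncertain by its coding copy elsewhere.

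The entry and the middle of the cycle differed less. Cs, citrate synthase, was the most abundant member of the group per length (85.5 and 64.7 RPKM), with 242 and 183 RPM and a log2 ratio of -0.40 (-0.47 to -0.33). Dlst, the E2 subunit of the oxoglutarate dehydrogenase complex, had 146 and 112 RPM (52.8 and 40.4 RPKM, -0.39), while Ogdh, the E1 subunit of the same complex, had 99.8 and 106 RPM (0.09, -0.01 to 0.19). Suclg1 and Fh1, the succinyl-CoA ligase alpha subunit and fumarase, had log2 ratios of -0.26 and -0.19. By compartment, 4 of 20 mitochondrial members past the minimum were lower and none higher (median -0.22), and 8 of 29 cytosolic members were lower and 2 higher (median -0.29). The lower shares, 20% and 27.6%, were both near the 23% of all genes.

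The makeup of isoenzyme families, and of the subunits of NAD isocitrate dehydrogenase, was compared within each library as shares of summed RPKM. These shares do not depend on scaling between libraries. Aldolase C made up 42.8% of Aldoa and Aldoc in WT and 21.6% in Igfbp7-/-. Hk2 made up 40.7% of the hexokinase pair in WT and 50.1% in Igfbp7-/-, and the counting interval of the latter (48.4 to 51.7%) included equal shares. Pfkp made up 71.4% and 63.3% of phosphofructokinase, Pfkl 23.8% and 29.4%, and Pfkm 4.88% and 7.28%. Pfkp thus led its family and Aldoa its pair in both libraries. Ldha held 98.1% of its pair in WT and 96.5% in Igfbp7-/-, but both Ldha and Ldhb have coding copies elsewhere that leave their levels uncertain. Among isocitrate dehydrogenases, the mitochondrial NADP enzyme Idh2 (21.3 and 21.1 RPM) held 68.2% and 72.0% beside the cytosolic Idh1 (13.3 and 10.9 RPM). The regulatory gamma subunit Idh3g of the NAD enzyme (23.0 and 16.1 RPM) held 37.5% and 29.2%, beside Idh3a (27.2 and 26.4 RPM) and Idh3b (26.5 and 28.0 RPM). The pair Mdh1 and Mdh2, added after its values had been seen, had Mdh1 at 62.6% in WT and 38.4% in Igfbp7-/-.

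**Figure D5:**
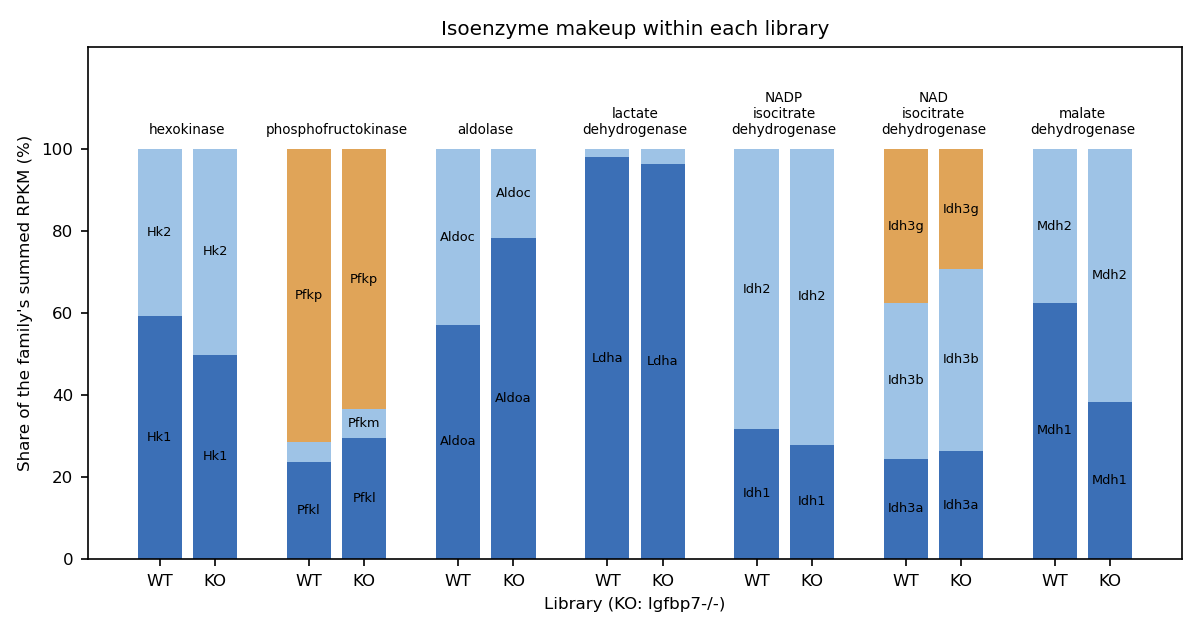
Share of each family's summed RPKM (percent) held by its members in the WT and the Igfbp7-/- (KO) library, for 7 families. The NAD isocitrate dehydrogenase genes encode subunits of the same enzyme, and the other families are isoenzymes. Each bar is 1 library and the smallest segments carry no name. The lead passed from Mdh1 in WT to Mdh2 in Igfbp7-/- among the malate dehydrogenases, and Aldoc made up 42.8% of the aldolases in WT and 21.6% in Igfbp7-/-.

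A further 68 genes of the same pathways were listed that are not members: tissue-restricted isoenzymes, regulators, carriers and neighbouring enzymes. Of the 53 past the minimum, 13 (24.5%) were lower and 6 (11.3%) were higher in Igfbp7-/- (median log2 ratio -0.31), beside 23% and 21.4% of all genes. At this minimum the lower share was near the background. Of the 31 that reached 10 RPM in one library, 10 (32.3%) were lower and 3 (9.68%) higher, beside 20.4% and 20.7% of all genes. Slc25a1, the mitochondrial citrate carrier, had 112 RPM in WT and 10.4 RPM in Igfbp7-/- (log2 ratio -3.42), and Acly, ATP citrate lyase, had 391 and 111 RPM (-1.82). Me1, the cytosolic malic enzyme that yields NADPH, had 139.9 and 71.0 RPM (-0.98). Against Cs, the RPKM of Acly was 1.06 in WT and 0.398 in Igfbp7-/-, and that of Slc25a1 0.776 and 0.0948, so both differed between the libraries by more than Cs, which makes citrate.

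Around pyruvate, Brp44l (now Mpc1), a subunit of the mitochondrial pyruvate carrier, had 76.4 and 30.8 RPM (-1.31), and Pdhx, which anchors the E3 subunit in the pyruvate dehydrogenase complex, had 11.7 and 5.14 RPM (-1.18). Brp44, the other carrier subunit, was at -0.58, just within 1.5 times. Hk3, a hexokinase typical of myeloid cells, had 21.7 and 5.74 RPM (-1.90), next to the lower leukocyte markers given above. Pgm1, which links glucose 6-phosphate to UDP-glucose, had 46.6 and 26.8 RPM (-0.80), the ribose phosphate user Prps2 17.2 and 11.1 RPM (-0.64), and the glycogen branching enzyme Gbe1 14.9 and 9.80 RPM (-0.60).

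Of these genes, 3 that reached 10 RPM were higher in Igfbp7-/-. Pfkfb2, a relative of Pfkfb3 with the same paired activities, had 31.8 and 63.2 RPM (0.99), close to the ratio of Pfkfb3. Pck2, the mitochondrial phosphoenolpyruvate carboxykinase, had 18.2 and 30.7 RPM (0.75), and Gys1, glycogen synthase, had 6.96 and 10.5 RPM (0.59). The liver and red cell pyruvate kinase Pklr and the testis form Pgk2 had no reads in either library. The 6 skeletal muscle markers summed to 2.48 and 2.83 RPM, and the only one past the minimum, Pgam2, a muscle relative of Pgam1, had 30 and 58 reads (log2 ratio 0.85).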

How the data were processed

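RNA-Seq of 1 WT and 1 Igfbp7-/- library of lactation day 3 MECs was used. The authors mapped paired-end SOLiD reads with Bowtie 0.12.3 and SAMtools 0.1.15 according to their processing notes, which name the mm9 build, whereas the study's methods name a human build. The deposited tables list mouse genes. For every gene the authors deposited the raw count, the RPM (the count scaled to all mapped reads of the library) and the RPKM (that RPM per kilobase, with a gene length of their choice). Reads that fall on no listed gene are part of the RPM denominator, and there were more of them in Igfbp7-/-. This lowers its RPM values relative to a scaling on listed genes. The median log2 ratio over all genes was 0.035 with RPM and 0.22 with that scaling. The gene annotation, strand setting and treatment of reads with several matches were not given in the sources used here.

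Ratios were log2((Igfbp7-/- RPM + 0.1)/(WT RPM + 0.1)) for the 14026 genes that reached 1 RPM in WT, Igfbp7-/- or both. A gene was counted as higher or lower from a ratio of 1.5. The study used the same ratio together with cutoffs on P value and sequence quality, which were not applied here. No P value was computed, because each genotype had 1 library. Counting intervals (95%, Clopper-Pearson) were taken on read pairs, that is counts divided by 2, since 75.8% of counts between 1 and 20 in WT and 74.1% in Igfbp7-/- were even; they leave out the pseudocount. At this depth 3 reads, taken as the detection floor, were worth 0.0874 and 0.0857 RPM. The 50 rows without a symbol (0.0408% and 0.0484% of mapped reads) were left out. Ribosomal RNA rows held 2.95% and 3.15% of mapped reads.

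The members, the other pathway genes and the markers were chosen with earlier results of these data known. Both values are given for members at a ratio of at least 1.5, for the 3 members with the highest mean RPKM in each group and for the isoenzyme families, other members by range or ratio, and other pathway genes at 10 RPM or more with such a ratio are named, apart from items that are not reported here. A few further genes, and the ratios between subunits or enzymes of a library, were chosen after their values were seen. Coding sequences were compared with the mm9 genome by blastn 2.17.0 (identity of at least 96% over 75 bases). Promoter windows came from RefSeq (GRCm38.p6), matched by symbol for 48 of 50 members, with Pkm2 as Pkm. Alternatives were pseudocounts of 1 and 0.01 RPM, other minimum levels, 5 other scalings including edgeR 4.0.16 TMM and DESeq2 1.42.0 size factors, a ratio of 2, and counts in place of RPKM for isoenzyme shares. Leaving out members with a coding copy and leaving out ribosomal RNA rows were added after the data had been seen. The scripts were tested on simulated counts. Python 3.11.15, pandas 2.3.3, scipy 1.17.1 and R 4.3.3 were used.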

Additional observations from a re-analysis of the deposited data

Results flagged for a closer look

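One result stood out because the signal lay on a row that is not a member. The Gapdh pseudogene Gm12070 held 1986 reads in WT and 1468 in Igfbp7-/-, above the 3 reads taken as the detection floor, while Gapdh itself held 92 and 95. The summed level of Gapdh and its listed pseudogenes was 64.1 RPM in WT and 47.0 RPM in Igfbp7-/-. How reads were shared between these rows was not tested.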

How the results depend on the processing

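The 2 higher and 12 lower members were the same genes with pseudocounts of 1 and 0.01 RPM, without a minimum, with the minimum raised to 10 RPM or required of both libraries, with TMM factors, with DESeq2 size factors and after centring on the median. Scaled to the reads on listed genes, 8 members were lower and the median was -0.10. With ribosomal RNA rows left out of that total as well, the counts were the same and the median was -0.084. Without the 20 most abundant genes in the totals 18 members were lower, while the share of all genes that were lower went from 23% to 27.9%. At a ratio of 2, 0 members were higher and 6 were lower, beside 9.64% and 13.8% of all genes. Without members that have a coding copy 6 were lower. No member past the threshold changed direction. When shares were taken from counts without division by length, Hk2 held 47.7% and 57.1% in WT and Igfbp7-/-, and Ldha 98.7% and 97.5%. Idh2 then held 61.6% and 65.9%, Idh3g 29.9% and 22.9%, and Mdh1 71.6% and 48.5%. In WT Pfkp held 73.4% and Aldoc 44.4%. Dividing by length is what separates these values from the main ones. No paired analysis was possible because each genotype had 1 library, and for the same reason no library could be left out. Low counts limit some members: the intervals of Gapdh, Ldhb, Pgls, Galk1 and Galt, with at most 146 reads, were wide. That of Gapdh ran from -0.60 to 0.63. All of them span 0, but so do those of some well covered members with ratios near 0, such as Pdha1 (-0.16 to 0.03). Gapdh and Ldhb have near-identical coding copies elsewhere in the genome, so their low counts cannot be read as weak expression.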
